A study of Homo sapiens with 4 samples.

Results

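The 10 genes described here encode enzymes that hydroxylate or cross-link collagen: the lysyl oxidases LOX, LOXL1, LOXL2, LOXL3 and LOXL4, the lysyl hydroxylases PLOD1, PLOD2 and PLOD3, and the prolyl 4-hydroxylase alpha subunits P4HA1 and P4HA2. They were taken by name from the 58336 genes of the count table, and all 10 were found there. The set was chosen by enzyme family with the counts of all 4 libraries already seen, including the line and estradiol differences, so the levels and differences of its members are a description and carry no p-value. RNA was sequenced from the human gastric cancer cell lines HGC-27 and AGS, with 1 library for each line and treatment. The libraries were HGC-27 after 10 nM estradiol for 1 day, HGC-27 control, AGS after 10 nM estradiol for 1 day, and AGS control. HGC-27 was derived from a lymph node metastasis of an undifferentiated gastric carcinoma, and AGS from a gastric adenocarcinoma. All libraries carry the genotype label WT. The labels do not say whether control cells received a vehicle, and none says that a library came from a separate culture.

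Collagen is modified in the endoplasmic reticulum and again after secretion. Prolyl 4-hydroxylase joins an alpha subunit, which carries the active site, to the beta subunit P4HB, and makes the hydroxyproline that keeps the triple helix stable at body temperature. The lysyl hydroxylases make hydroxylysine: PLOD1 acts mainly within the helix, PLOD2 on the telopeptides at the chain ends, and PLOD3 also attaches sugars to hydroxylysine. The lysyl oxidases are copper enzymes that turn lysine and hydroxylysine into aldehydes outside the cell, and these condense into the cross-links between collagen molecules. Telopeptide hydroxylysine leads to cross-links that are more stable than those from lysine. PLOD2, P4HA1, P4HA2, LOX and LOXL2 are known targets of the hypoxia-inducible factors, and collagen cross-linking is studied for its part in the stiffness of tumour stroma.

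Promoter sequence was read for 9 of the 10 genes, in 12 windows of 250 bases before a RefSeq transcription start (GRCh38.p14). The windows of PLOD2, LOX and P4HA1 are shown, 1 known hypoxia target from each of the 3 families whose window held a hypoxia response core. Of the other targets named above, P4HA2 held 0 cores in its window and LOXL2 had no window. In the lines that follow, 5′ to 3′ on the minus strand, capitals mark the 5-base core of the hypoxia response element, ACGTG or GCGTG, or its reverse complement.
PLOD2 promoter: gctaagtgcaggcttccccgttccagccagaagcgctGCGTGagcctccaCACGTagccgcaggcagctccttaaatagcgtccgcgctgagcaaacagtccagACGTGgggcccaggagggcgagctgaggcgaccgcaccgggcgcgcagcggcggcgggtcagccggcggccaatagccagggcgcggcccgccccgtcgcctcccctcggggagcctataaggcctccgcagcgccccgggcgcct
LOX promoter: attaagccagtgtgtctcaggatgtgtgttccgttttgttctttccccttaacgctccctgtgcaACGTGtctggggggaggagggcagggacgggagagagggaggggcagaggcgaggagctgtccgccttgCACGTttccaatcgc
P4HA1 window: tgatcgagctCACGTagcgagggct
The PLOD2 stretch is the whole window, chr3:146161185-146161434. The LOX stretch, chr5:122078361-122078509, is the 149 bases of its window that lie outside annotated exons, and the P4HA1 stretch, chr10:73096938-73096962, is the 25 bases around its core, which lies inside the first annotated bases of the gene, in an exon. The PLOD2 window held 3 cores and 30 CpG dinucleotides, against a median of 11 CpG over 35093 promoters, which put it at the 89.1 percentile. LOX has 3 windows: the one shown held 4 cores, 2 of them in exon bases that are not printed. The others overlap each other and held the same 2 cores. The P4HA1 window held 1. PLOD1 had 2 cores and LOXL3 had 1 in a single window of its pair, whereas LOXL1, LOXL4, PLOD3 and P4HA2 had 0. Over all 35093 promoters, 43.2% held at least 1 core on either strand. The share holding as many as PLOD2 or LOX was not counted. The full estrogen response element, GGTCANNNTGACC, was in 0.0399% of promoters and in 0 of the 12 windows. At so low a share, 0 of 12 says nothing about these genes. Its half-site, GGTCA on either strand, was in 32.7% of promoters, and occurred 1 time in the PLOD2 window and 1 time in the PLOD3 window. These are matches of letters only, and binding was not measured.

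The libraries held 24597379 counts in HGC-27 with estradiol and 28734374 in HGC-27 control, and 28062811 in AGS with estradiol and 26306803 in AGS control. A count of 0 therefore allows up to 0.104 to 0.12 CPM (counts scaled by library size and TMM factor), taking 3 counts as the limit, and covers counting error only. The lines differed in their cell type markers, with the epithelial ones low in HGC-27. The summed level of 8 epithelial markers was 74.9 and 70.6 CPM in HGC-27 with estradiol and control, and 6332 and 5992 CPM in AGS with estradiol and control. KRT8 gave 66.0 and 63.1 CPM of the HGC-27 sums, and 3438 and 3198 CPM of the AGS sums. No marker was at 0 in any library, but KRT20 had at most 8 counts in a library and did not pass the filter on low counts. The summed level of 6 mesenchymal markers was 1983 and 1958 CPM in HGC-27 with estradiol and control, and 5.57 and 5.0 CPM in AGS with estradiol and control. Of these, 1 was at 0 in HGC-27 with estradiol and 2 were at 0 in each AGS library. VIM gave 1366 and 1356 CPM of the HGC-27 sums, and all 5 markers that passed the filter were called higher in HGC-27. So were 41.5% of all 18278 genes tested. CDH2 did not pass and ran the other way, with 0 and 4 counts in HGC-27 and 11 and 5 in AGS with estradiol and control. The 8 fibroblast markers summed to 1042 and 970 CPM in HGC-27 with estradiol and control, where none was at 0. In AGS with estradiol and control they summed to 22.0 and 18.2 CPM, with 4 and 5 markers at 0, among them DCN, LUM, THY1 and POSTN in both. PDGFRA made up nearly all of these AGS sums, with 21.7 and 17.9 CPM. It had 44.0 and 36.2 CPM in HGC-27 with estradiol and control. The 6 leukocyte and endothelial markers stayed at or below 1.32 CPM in sum, with 3 or 4 of them at 0. The sums of the epithelial, mesenchymal and fibroblast markers differed between the lines, alongside the enzyme differences given here. Their part in any line difference was not tested. In bulk RNA, fewer cells of a type and less RNA per cell cannot be told apart.

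PLOD2 (ENSG00000152952, chromosome 3, 146069440 to 146163653 in the file, GRCh38 coordinates) was read in HGC-27 and at 0 in AGS. It had 4618 counts in HGC-27 with estradiol and 4212 in HGC-27 control, against 0 counts in both AGS libraries. Its level was 185 and 146 CPM in HGC-27 with estradiol and control, and 0 CPM in AGS. With 3 counts in each AGS library as the limit, the level was at least 1261-fold higher in HGC-27. No exon base of PLOD2 is shared with another annotated gene. The other lysyl hydroxylases were present in both lines. PLOD1 had 166 and 155 CPM in HGC-27 with estradiol and control, and 169 and 167 CPM in AGS with estradiol and control; its line difference, HGC-27 over AGS, was -0.06 ± 0.055 on the log2 scale (SE). PLOD3 had 197 and 191 CPM in HGC-27 with estradiol and control, and 159 and 160 CPM in AGS with estradiol and control, a difference of 0.29 ± 0.054 on the log2 scale. PLOD3 shares 7.56% of its exon bases with ZNHIT1 on the opposite strand, which had 1562 and 1744 counts in HGC-27 with estradiol and control, and 1021 and 1121 in AGS with estradiol and control, and so also had more in HGC-27. The part of such overlaps in the counts was not tested. PLOD1 was the only tested member whose lines were not called different, and PLOD3 differed by a small step in the direction of HGC-27.

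**Figure D1:**
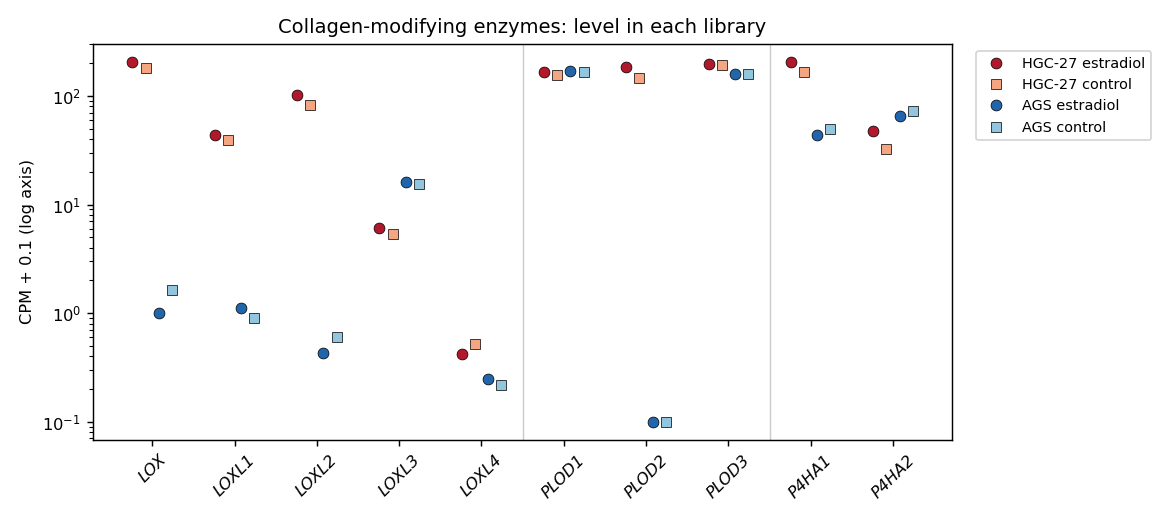
Level of the 10 enzymes in the 4 libraries, as CPM + 0.1 on a log axis, 1 point per library, with estradiol left of control within each line and HGC-27 left of AGS. PLOD2 is at 0 CPM in both AGS libraries, while PLOD1 lies between 155 and 169 CPM in all 4.

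Of the 5 lysyl oxidases, 3 were far higher in HGC-27. LOX, the founding member of the family (ENSG00000113083, chromosome 5, 122063195 to 122078360), had 206 and 181 CPM in HGC-27 with estradiol and control, against 0.904 and 1.54 CPM in AGS with estradiol and control, a 158-fold higher mean level. LOXL2 (ENSG00000134013), which acts on basement membrane collagen IV, had 102 and 81.7 CPM in HGC-27 with estradiol and control, against 0.326 and 0.50 CPM in AGS with estradiol and control, a 223-fold higher mean. LOXL1 (ENSG00000129038), known for its part in elastic fibres, had 43.2 and 38.9 CPM in HGC-27 with estradiol and control, against 1.013 and 0.808 CPM in AGS with estradiol and control, a 45.1-fold higher mean. All 3 genes were far above AGS in both HGC-27 libraries, and the AGS values rest on 9 to 40 counts each. LOX shares 2.49% of its exon bases with SRFBP1 on the opposite strand, which had 835 and 1071 counts in HGC-27 and 707 and 721 in AGS with estradiol and control. LOXL2 shares 2.1% with ENTPD4 on the same strand, which had 1778 and 2260 counts in HGC-27 and 2560 and 2445 in AGS with estradiol and control. The part of these overlaps in the small AGS counts was not tested.

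LOXL3 (ENSG00000115318), needed for development of palate and cartilage in mice, ran the other way. It had 6.04 and 5.29 CPM in HGC-27 with estradiol and control, and 15.99 and 15.2 CPM in AGS with estradiol and control. The line difference was -1.46 ± 0.151 on the log2 scale, lower in HGC-27. The count table gives no strand setting, and 14.33% of the exon bases of LOXL3 are shared with HTRA2, which lies on the opposite strand. HTRA2 itself had 495 and 559 counts in HGC-27 with estradiol and control, and 355 and 312 in AGS with estradiol and control. DOK1, also on the opposite strand, shares 4.95% and had 277 and 331 counts in HGC-27 with estradiol and control, and 409 and 366 in AGS with estradiol and control. HTRA2 thus had fewer counts in the line where LOXL3 had more, and DOK1 had more there. LOXL1 likewise shares 9.21% of its exon bases with the antisense gene LOXL1-AS1, which had 395 and 406 counts in HGC-27 with estradiol and control and 179 in each AGS library. LOXL4 (ENSG00000138131) had 8 and 12 counts in HGC-27 with estradiol and control, and 4 and 3 counts in AGS with estradiol and control, and did not pass the filter on low counts.

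The prolyl hydroxylase subunits moved in opposite directions between the lines. P4HA1 (ENSG00000122884), the most widely expressed alpha subunit, had 205 and 166 CPM in HGC-27 with estradiol and control, and 43.4 and 49.1 CPM in AGS with estradiol and control, a difference of 2.0 ± 0.063 on the log2 scale. P4HA2 (ENSG00000072682), abundant in cartilage and bone, had 47.5 and 32.6 CPM in HGC-27 with estradiol and control, and 65.1 and 73.0 CPM in AGS with estradiol and control, a difference of -0.80 ± 0.074, and of -0.53 when the HGC-27 control library was left out. P4HA2-AS1, which overlaps 6.45% of the exon bases of P4HA2 on the other strand, had at most 2 counts in a library.

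Of the 9 members that passed the filter, 8 were called different between the lines by edgeR's quasi-likelihood test with Benjamini-Hochberg adjustment at 0.05. LOX, LOXL1, LOXL2, PLOD2, PLOD3 and P4HA1 were higher in HGC-27, and LOXL3 and P4HA2 were lower. Of all 18278 genes tested, 77.2% were called, 41.5% higher and 35.7% lower in HGC-27. The share of members called is read only as a description, since the members were chosen with these values known. The 2 libraries of a line did not overlap those of the other for any of the 10 members, including LOXL4, which did not pass the filter. The same held for 88.7% of the tested genes.

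**Figure D2:**
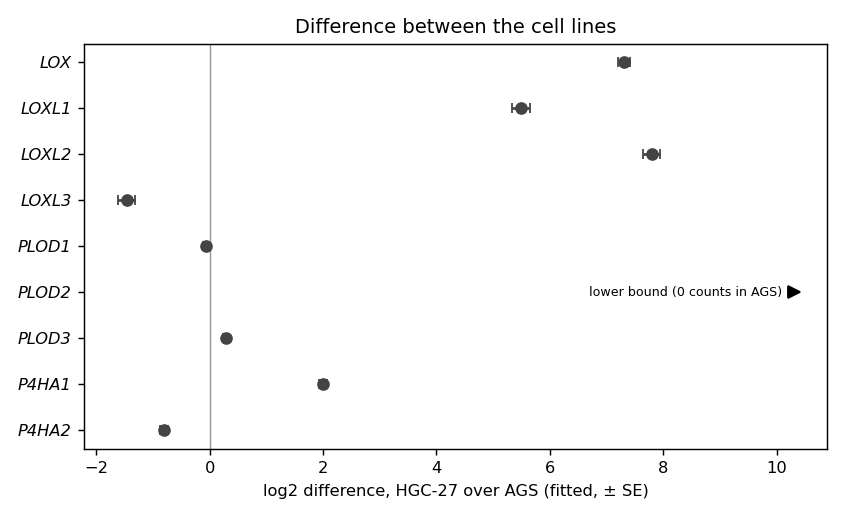
Log2 difference between HGC-27 and AGS of the tested enzymes, with bars for the standard error. LOX, LOXL1, LOXL2 and P4HA1 lie above 0, LOXL3 and P4HA2 below, PLOD1 is at -0.06, PLOD3 at 0.29, and PLOD2 is drawn at its lower bound of 10.30 because AGS had 0 counts.

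Because each family shares a reaction, its make-up was described as the share of each member in the family's summed level per kilobase of gene. In the lysyl oxidases, LOX made up 54.2% and 55.4% of the sum in HGC-27 with estradiol and control, and 3.88% and 6.75% in AGS with estradiol and control. LOXL2 made up 26.2% and 24.3% in HGC-27 with estradiol and control, and 1.36% and 2.13% in AGS with estradiol and control. LOXL3 made up 2.03% and 2.06% in HGC-27 with estradiol and control, and 87.2% and 84.9% in AGS with estradiol and control. The leading lysyl oxidase was therefore LOX in HGC-27 and LOXL3 in AGS, while the family sum was 68.4 and 59.0 CPM per kb in HGC-27 with estradiol and control, and 4.203 and 4.11 CPM per kb in AGS with estradiol and control.

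In the lysyl hydroxylases, PLOD2 made up 26.8% and 23.3% of the sum in HGC-27 with estradiol and control, and 0% in AGS. PLOD3 made up 38.6% and 41.2% in HGC-27 with estradiol and control, and 46.9% and 47.3% in AGS with estradiol and control. PLOD1 made up 34.7% and 35.5% in HGC-27 with estradiol and control, and 53.1% and 52.7% in AGS with estradiol and control. At the depth of these libraries, AGS reads of this family fell on PLOD1 and PLOD3. In the prolyl hydroxylase subunits, P4HA1 made up 92.2% and 93.3% in HGC-27 with estradiol and control, and 64.7% and 64.9% in AGS with estradiol and control. The order in AGS depends on the gene length used: P4HA2 has 8502 exon bases in the file but 3349 in its longest transcript, and with the longest transcript P4HA1 made up 44.0% and 44.2% in AGS with estradiol and control. P4HA3, the remaining alpha subunit, had at most 9 counts in a library.

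**Figure D3:**
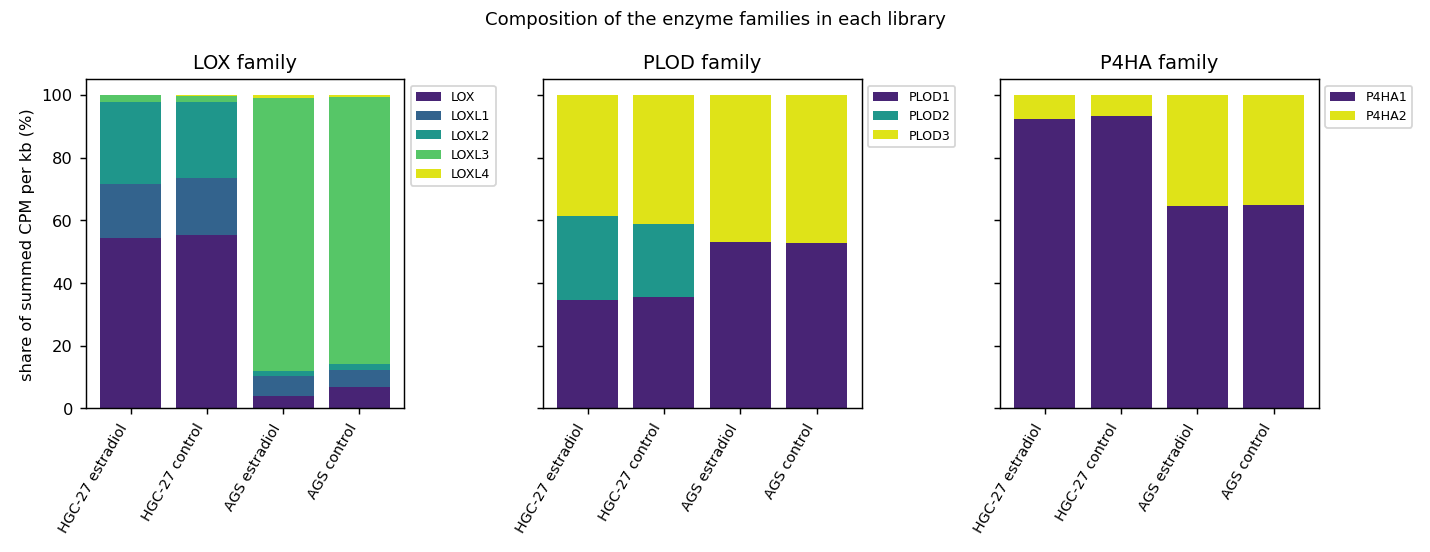
Share (percent) of each member in the summed CPM per kilobase of its family, one bar per library, with estradiol left of control and HGC-27 left of AGS. LOXL3 fills 84.9% to 87.2% of the lysyl oxidase bar in AGS and 2.03% to 2.06% in HGC-27, and PLOD2 is missing from the AGS bars.

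After scaling for library size, 7 of the 10 enzymes had a higher level with estradiol than in control in HGC-27 with a counting interval above 0, and 0 did in AGS. Estradiol was compared with control within each line, as the log2 ratio of the library-scaled counts with a 95% interval for counting error. In HGC-27 the ratio was highest for P4HA2, 0.54 (interval 0.42 to 0.67), from 1186 counts with estradiol against 942 in control. PLOD2 had a ratio of 0.34 (0.28 to 0.40), LOXL2 of 0.33 (0.24 to 0.41) and P4HA1 of 0.31 (0.25 to 0.37). LOX had 0.18 (0.13 to 0.24), LOXL1 0.15 (0.031 to 0.28) and PLOD1 0.11 (0.045 to 0.17). The intervals of PLOD3, LOXL3 and LOXL4 included 0. Counting the 9 members that averaged 100 counts or more in HGC-27, 7 lay above 0 with their interval and 0 lay below. Over the 11663 genes at that depth, 10.8% lay above 0 and 14.6% below, and the median ratio was -0.0085. Ranked among these genes, P4HA2 was at the 99.5 percentile and PLOD3, the lowest of the 9, at the 68.6 percentile.

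In AGS no member had an interval above 0. P4HA1 had a ratio of -0.18 (interval -0.29 to -0.063), from 1199 counts with estradiol against 1275 in control, and P4HA2 had -0.17 (-0.26 to -0.072), from 1799 counts with estradiol against 1897 in control. PLOD1, PLOD3 and LOXL3 had intervals that included 0. LOX had -0.75 (-1.55 to -0.011) from 25 counts with estradiol against 40 in control. PLOD2 had no ratio, with 0 counts in both libraries. Counting the 5 members that averaged 100 counts or more in AGS, 0 lay above 0 with their interval and 2 below, against 14.2% above and 15.5% below among 10917 genes. Of the 9 members with a ratio in both lines, 6 had opposite signs in HGC-27 and AGS, against 51% of 16648 tested genes. LOXL4 is 1 of those 6, but it did not pass the filter and is not among the 16648. Opposite signs with both intervals excluding 0 held for 3 of the 9 members. They held for 3.3% of the 16648 genes, which include genes with few counts. These intervals leave out the variation between cultures, since each line has 1 library per treatment.

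**Figure D4:**
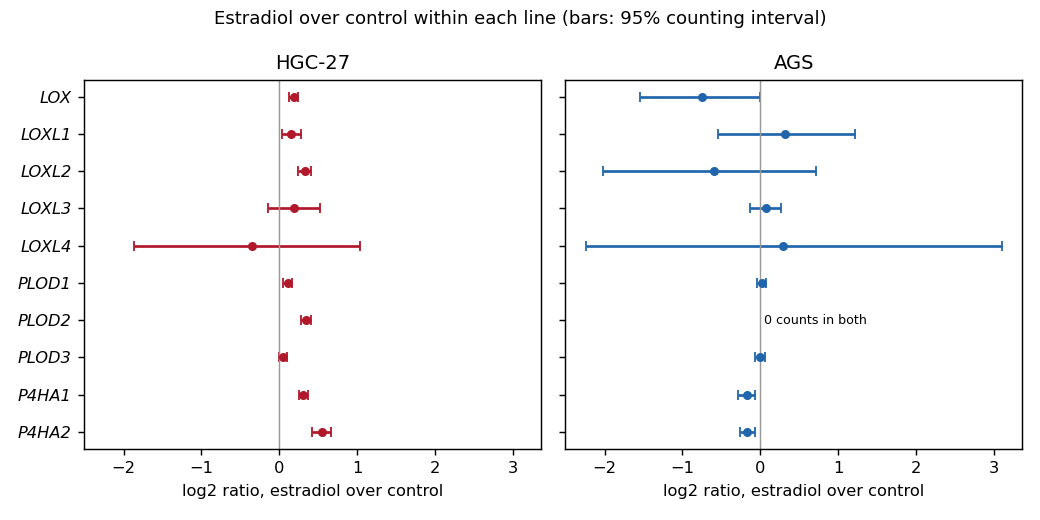
Log2 ratio of estradiol over control in HGC-27 and AGS for each enzyme, with 95% counting intervals as bars. In HGC-27 7 of the intervals lie above 0, led by P4HA2 at 0.54, while in AGS those of LOX, P4HA1 and P4HA2 lie below 0 and PLOD2 has no value.

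With the lines as blocks, PLOD2 was the only member that edgeR's quasi-likelihood test called with estradiol, at a log2 difference of 0.34 ± 0.084 (SE). That value comes from HGC-27 alone, since AGS had no count. The rule for the set used this contrast, so nothing is read from the call. The fit has 1 residual degree of freedom, and 28 of the 18278 genes were called, 0.153% of them, with 21 higher (0.115%) and 7 lower (0.0383%). P4HA2 had 0.16 ± 0.074, LOXL2 0.30 ± 0.098 and P4HA1 0.10 ± 0.061. DESeq2 and limma-voom called 0 members.

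The other genes of the pathway were counted in 5 lists, chosen with earlier results of these data known. Between the lines, 39 of the 58 tested genes were higher in HGC-27, 14 were lower and 5 were not called, with a median log2 difference of 1.10 against 0.10 over all genes tested. Of all 18278 genes tested, 41.5% were called higher in HGC-27 and 35.7% lower, and these shares stand beside the counts of each list. Of 15 genes of collagen folding and modification in the endoplasmic reticulum, 13 were higher and 1 was lower. P3H2, a prolyl 3-hydroxylase, had 2105 and 1993 counts in HGC-27 with estradiol and control, against 2 and 0 in AGS with estradiol and control. P3H3, a relative that acts with lysyl hydroxylase 1 in mice, had 1459 and 1719 counts in HGC-27 with estradiol and control, against 0 and 3 in AGS with estradiol and control. FKBP10, a chaperone that binds lysyl hydroxylase 2, had 8508 and 9591 counts in HGC-27 with estradiol and control, against 56 and 48 in AGS with estradiol and control. COLGALT2, a collagen galactosyltransferase, was higher in HGC-27 by 5.81 on the log2 scale. The lower gene was P4HB, the shared beta subunit, with a difference of -0.50 ± 0.050.

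Of 12 genes of procollagen export and propeptide removal, 8 were higher and 4 were lower in HGC-27, against 41.5% and 35.7% of all tested genes. ADAMTS3 and ADAMTS2, which cut the amino-terminal propeptide, had 594 and 724 counts and 328 and 363 counts in HGC-27 with estradiol and control, and 0 in both AGS libraries. TLL1, a relative of BMP1 that cuts the other propeptide, had 129 and 120 counts in HGC-27 with estradiol and control and 0 in AGS. PCOLCE, which helps that cleavage, was higher by 5.51 on the log2 scale. Of 10 lysyl oxidase partners and scaffolds, 6 were higher and 2 were lower. POSTN, a matrix protein that helps to activate LOX, had 14469 and 15970 counts in HGC-27 with estradiol and control and 0 in AGS. FBLN5, an elastic fibre protein that binds LOXL1, had 889 and 1021 counts in HGC-27 with estradiol and control and 0 in AGS. TGM2, a transglutaminase that cross-links matrix proteins by another bond, had 3 and 6 counts in HGC-27 with estradiol and control, against 486 and 512 in AGS with estradiol and control. FMOD, a small proteoglycan that binds LOX, was lower in HGC-27 by -5.65 on the log2 scale.

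The collagens and elastin on which these enzymes act also split the lines. Of 15 tested, 10 were higher and 5 were lower in HGC-27, against 41.5% and 35.7% of all tested genes. COL3A1 had 63740 and 69721 counts in HGC-27 with estradiol and control, against 0 and 5 in AGS with estradiol and control. COL11A1 had 10517 and 10102 counts and COL6A2 1732 and 1866 counts in HGC-27 with estradiol and control, and both had 0 in AGS. COL1A2 had 237 and 254 counts in HGC-27 with estradiol and control, and 0 in AGS. The basement membrane chain COL4A1 had 2 and 0 counts in HGC-27 with estradiol and control, against 195 and 114 in AGS with estradiol and control. Of 6 genes of ascorbate and iron supply, 2 were higher, 2 were lower and 2 were not called. TFRC, the transferrin receptor, was higher by 0.71 on the log2 scale and SLC11A2, an iron transporter, by 0.50, whereas GSTO1, which can reduce dehydroascorbate, and SLC23A2, an ascorbate transporter, differed by -1.09 and -0.75.

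With estradiol, 0 of these 58 genes were called by edgeR's quasi-likelihood test, 6 had an unadjusted p under 0.05 (593 of all 18278 genes did), and DESeq2 and limma-voom also called 0. The median log2 difference was 0.0049. Within HGC-27, among genes averaging 10 counts or more, intervals lay above 0 for 7 of 13 collagens and elastin, 3 of 15 folding genes, 0 of 12 export genes, 3 of 8 lysyl oxidase partners and 2 of 6 ascorbate and iron genes. They lay below 0 for 1 folding gene and 1 export gene. Over all 16804 tested genes at that depth in HGC-27, 10% lay above 0 and 11.3% below. Within AGS, intervals lay below 0 for 1 of 9 collagens and elastin, 4 of 13 folding genes, 6 of 8 export genes, 3 of 8 lysyl oxidase partners and 3 of 6 ascorbate and iron genes. They lay above 0 for 3 collagens and 1 folding gene. Over all 15317 tested genes at that depth in AGS, 12.5% lay above 0 and 13.6% below. Of 10 hypoxia marker genes, 7 were higher and 1 was lower in HGC-27 than in AGS, against 41.5% and 35.7% of all tested genes. The largest differences were those of ENO2 (7.58 on the log2 scale), CA9 (7.07), ADM (6.08) and NDRG1 (1.86). With estradiol, 3 of the 10 were called higher by edgeR's quasi-likelihood test, against 0.115% of all tested genes. CA9, a carbonic anhydrase, was higher by 1.60 ± 0.373 on the log2 scale (SE), NDRG1 by 0.81 ± 0.10 and ENO2, a glycolytic enzyme, by 0.55 ± 0.124. DESeq2 and limma-voom called 0 of the 10. The 3 edgeR calls rest on HGC-27, where the ratio was 1.72 for CA9, 1.31 for NDRG1 and 0.56 for ENO2. In AGS with estradiol and control, NDRG1 had 353 and 332 counts, a ratio of -0.00042. CA9 had 0 and 2 counts and ENO2 8 and 6 counts there. Within HGC-27, 8 of these 10 markers had intervals above 0 and 1 below, with a median ratio of 0.28, whereas in AGS 0 of 7 did in either direction. Of the 8 fibroblast markers, 0 were called with estradiol by edgeR; in HGC-27 the intervals of 6 lay above 0, with a median ratio of 0.17. Of the 5 mesenchymal markers at that depth in HGC-27, 1 lay above 0, with a median ratio of 0.011. The part of these markers in the ratios of the enzymes was not tested.

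**Figure D5:**
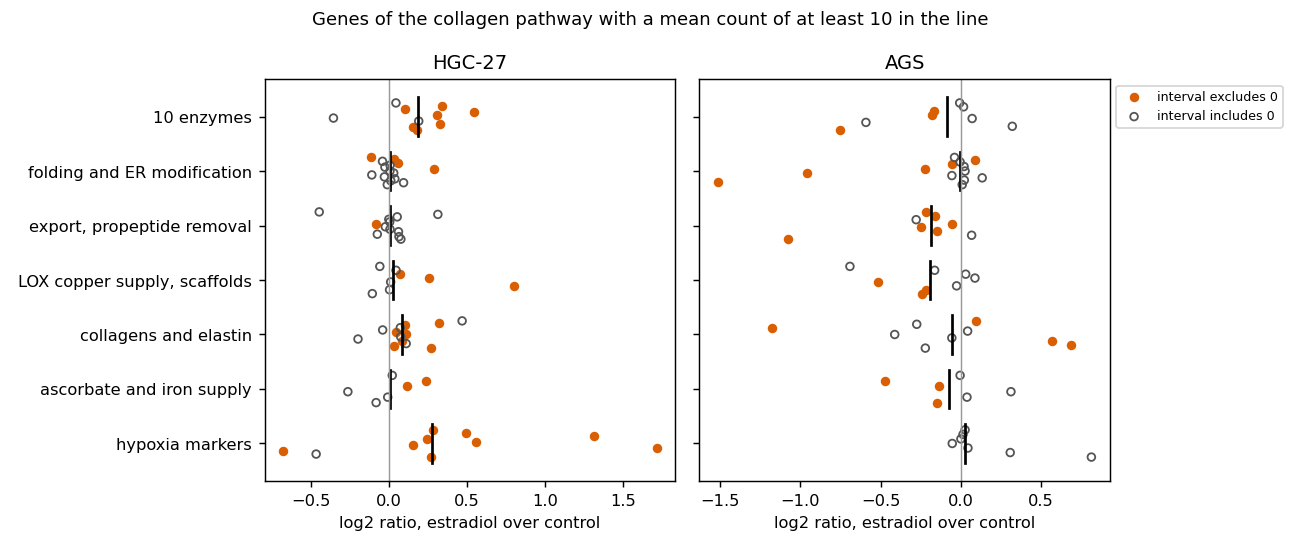
Log2 ratio of estradiol over control in HGC-27 and AGS for the enzymes and the genes of the pathway and hypoxia lists, 1 point per gene averaging 10 counts or more there, filled where the 95% counting interval excludes 0; vertical bars are medians. The enzymes' median is 0.19 in HGC-27 and -0.087 in AGS, and the hypoxia markers' median is 0.28 in HGC-27 and 0.026 in AGS.

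Among 8022 other protein-coding genes with a mean of at least 20 CPM, MAGED1, PTPRS and QPRT had the pattern most like PLOD2 over the 4 libraries, with Euclidean distances, on log2(CPM + 1) values centred over the libraries, of 0.212, 0.214 and 0.222. MAGED1 had 4483 and 4937 counts in HGC-27 with estradiol and control, and 0 in AGS. PTPRS had 4275 and 4756 counts in HGC-27 with estradiol and control, and 2 in each AGS library. QPRT had 4604 and 5031 counts in HGC-27 with estradiol and control, and 0 in AGS. The likeness lies mainly in the step between the lines. In HGC-27 each of these genes had fewer raw counts with estradiol than in control, whereas PLOD2 had more, 4618 against 4212.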

How the data were processed

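RNA-seq of 4 libraries was used, 1 for each line (HGC-27, AGS) and treatment (10 nM estradiol for 1 day, control). The values are raw read counts per gene as the authors deposited them, made with HISAT2 and featureCounts per the submitters' processing notes, which give no versions. Those notes name hg18 as the build, but starts and ends in the file equal those of GENCODE 29 (GRCh38) for 57464 of 58336 genes and for all 10 members. No strand setting is given in the sources used here.

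Counts were tested with edgeR 4.0.16 in R 4.3.3 (quasi-likelihood F-test on cell line and treatment, TMM scaling, filterByExpr, Benjamini-Hochberg adjustment, threshold 0.05): 18278 genes were tested. Within a line, log2 ratios used a prior of 0.5 counts and exact conditional binomial 95% intervals, with no test because there is 1 library per arm. DESeq2 1.42.0 and limma 3.58.1 (voom) were alternatives. The code was tested on simulated data. The members and all gene lists were chosen with earlier results of these data known. The named genes were the members, the genes of each list called with estradiol, and up to 4 called genes of largest line difference per list at a mean of at least 1 CPM; COL4A1, P4HB, P4HA3 and the overlapping genes were named after their values were seen.

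The replicate number in the labels follows the cell line, so estradiol and control are paired by line. Deviations from the group means correlated at 0.989 in both lines. With 1 library per line in each group, the deviations of the lines mirror each other. This is therefore a single value set by the line difference, and it is no separate evidence from each line. The 1 residual degree of freedom of the edgeR fit is the difference in estradiol ratio between the lines, with no replicate in it. Dispersion was mostly shared over genes, with 396.9 prior against 1 residual degree of freedom. The p-values and SEs therefore rest on these 4 libraries only and do not measure the spread between cultures. Promoter sequences are from RefSeq (GRCh38.p14), where LOXL2 had no entry.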

Additional observations from a re-analysis of the deposited data

Results flagged for a closer look

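In 6 of the 9 members with a ratio in both lines, estradiol over control had opposite signs in HGC-27 and AGS, and the same held for 51% of 16648 tested genes. LOXL4, 1 of the 6, did not pass the filter and is not among the 16648. With 1 pair of libraries per line, the difference between the lines was not tested. The log2 ratio of HGC-27 minus that of AGS was 0.94 for LOX, 0.92 for LOXL2, -0.64 for LOXL4, 0.053 for PLOD3, 0.49 for P4HA1 and 0.71 for P4HA2. For LOX, P4HA1 and P4HA2, 3 of the 9 members, the signs were opposite and the counting intervals of both lines excluded 0. The same held for 3.3% of the 16648 genes, which include genes with few counts. The AGS value of LOX rests on 25 counts with estradiol and 40 in control, that of LOXL2 on 9 and 13, and LOXL4 had at most 12 counts in a library.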

How the results depend on the processing

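The count of genes called with estradiol, 28, was 1 with DESeq2, 0 with limma-voom and 17 with robust dispersion. Of the members, PLOD2 was called with protein-coding genes only and with robust dispersion; 0 members were called with DESeq2 size factors, without the low-count filter, with DESeq2 or with limma-voom. Its log2 difference was 0.16 with DESeq2 and at most 0.36 in the other settings. The estradiol difference of LOX turned to -0.22 with DESeq2; the cause was not tested. Without the replicate block, which drops the pairing by cell line, 0 genes and 0 members were called with estradiol, with 2 genes at an unadjusted p under 0.05 against 593 with the block; 490 were under it with limma-voom and 145 with DESeq2. Between the lines, 8 members were called in every setting except robust dispersion, where P4HA2 was lost and 7 were called, and when each library was left out 8 were called, with 13189 to 14408 genes. Leaving out a library in the estradiol fit leaves no residual degree of freedom, so it gives only the ratio of the other line. Family shares moved with the gene length used. The lengths of the longest transcripts were an alternative chosen after seeing the data. One library per line and treatment limits the estradiol values, and 0 counts cannot show that PLOD2 is absent from AGS.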

Other observations

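Near PLOD2 on chromosome 3, PLSCR4, a gene of the phospholipid scramblase family 28.7 kb away, had 335 and 443 counts in HGC-27 with estradiol and control, against 1 and 0 in AGS with estradiol and control. PLSCR1, another gene of that family within 500 kb, had 639 and 735 counts in HGC-27 with estradiol and control, and 2024 and 1831 in AGS with estradiol and control. Near LOXL1 on chromosome 15, STRA6, a retinol transporter gene, had 630 and 498 counts in HGC-27 with estradiol and control, against 2 and 4 in AGS with estradiol and control. These neighbours were picked after their values were seen, and no test was made.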
